A study of Rattus norvegicus with 8 samples.

Results

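The miR-17-92 and miR-106b-25 clusters were examined in the striatum of rats that had self-administered methamphetamine (METH) or saline. Members were chosen by name, not by their values, but with earlier results of these data known. They were 7 mature miRNAs of miR-17-92 (rno-miR-17-5p, rno-miR-17-1-3p, rno-miR-18a-5p, rno-miR-19a-3p, rno-miR-19b-3p, rno-miR-20a-5p and rno-miR-92a-3p) and 3 of miR-106b-25 (rno-miR-106b-5p, rno-miR-93-5p and rno-miR-25-3p), named hereafter without the prefix for rat. All 10 were among the 752 mature miRNAs of the count table, and all 10 passed the low-count filter that left 507 miRNAs for testing. Small RNA was sequenced from 8 male Sprague-Dawley rats labelled wild type, with 4 in the saline group and 4 in the METH group, and each rat gave 1 library. Both groups had been trained to press a lever for food, fitted with a jugular catheter and given daily sessions in which a lever press delivered an infusion. The infusion held METH in the METH group and saline alone in the saline group. Per the study's methods, only rats that learned the food task received a catheter, and 4 rats per group with stable pressing in the last sessions were kept for sampling, so the groups are not a random draw of animals. The age of the rats was not given in the sources used here. The question was whether the level of each miRNA, or the balance between members, differed with METH.

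Library totals ranged from 12929302 counts in METH rat 1 to 27632443 counts in saline rat 3. Values are given as CPM, the count of a miRNA relative to each 1e+06 counts of its library, after scaling by the trimmed mean method of edgeR (TMM). The neuronal miRNAs miR-124-3p, miR-9a-5p, miR-128-3p and miR-137-3p summed to between 249553 and 451242 CPM, so the defining markers of brain were abundant in each library. METH rat 4 stood apart across the whole table. Its median absolute deviation from the mean of the 8 libraries was 0.70 on the log2 CPM scale, against 0.19 to 0.28 in the other 7 libraries. For some of the differences that this rat moves, the value without it is also given. The 10 members together took 0.106 ± 0.0193% of the counts of saline rats and 0.101 ± 0.0105% of those of METH rats (SD, n = 4 each).

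A miRNA cluster is a set of hairpins cut from a shared primary transcript, so its members start out in equal number and diverge through cutting, loading and decay. The miR-17-92 cluster is a target of the Myc and E2F transcription factors and is best known for promoting proliferation, while its members also act in neural progenitors. The miR-106b-25 cluster is a paralogue that lies in an intron of Mcm7, a gene for a subunit of the helicase that licenses DNA replication. The glucocorticoid receptor, whose regulation the study pursued through another miRNA, is a known target of miR-18a. Most striatal neurons no longer divide. In bulk tissue, fewer cells of a type and less RNA per cell cannot be told apart.

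Sequences were taken from RefSeq on the rat assembly GRCr8, and each of the 10 members had an entry. A miRNA recognises targets mainly through its seed, bases 2 to 8 from the 5′ end, which is shown in capitals. The members are printed by shared seed because the seed decides which of them can act on the same targets, and because the stretches in lower case are all that lets a read be assigned to a single member. The members with the miR-17 seed were:
miR-17-5p: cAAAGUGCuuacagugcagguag
miR-20a-5p: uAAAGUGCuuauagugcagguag
miR-93-5p: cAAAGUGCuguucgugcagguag
miR-106b-5p: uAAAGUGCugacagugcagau
The members with the miR-92 seed were:
miR-92a-3p: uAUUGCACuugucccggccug
miR-25-3p: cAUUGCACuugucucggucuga
The members with the miR-19 seed were:
miR-19a-3p: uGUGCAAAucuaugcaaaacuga
miR-19b-3p: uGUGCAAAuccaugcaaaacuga
The remaining members each had a seed that no other member carried:
miR-18a-5p: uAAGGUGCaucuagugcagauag
miR-17-1-3p: aCUGCAGUgaaggcacuugugg

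Between miR-17-5p and miR-20a-5p, 21 of 23 bases were identical, and the substitutions, counted from 1 at the 5′ end of miR-17-5p, were C1U and C12U. miR-19a-3p and miR-19b-3p differed at 1 of 23 bases, by U11C. miR-92a-3p and miR-25-3p differed at 3 of the 21 bases they could be compared over, and miR-93-5p differed from miR-17-5p at 4 of 23. The seed of miR-18a-5p differs from that of miR-17-5p by A4G, and the whole sequence by 6 of 23 bases. The authors' rule for reads that fit several places was not given in the sources used here, so levels within the pairs that differ at 1 or 2 bases carry that uncertainty.

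On GRCr8 the genes of miR-17-92 lie on chromosome 15 in the order Mir17, Mir18a, Mir19a, Mir20a, Mir19b1 and Mir92a1. Those of miR-106b-25 lie on chromosome 12, within the bounds of Mcm7, in the order Mir106b, Mir93 and Mir25. The reads had been aligned to rn6, so positions are not given. A paralogous cluster on chromosome X comprises Mir106a, Mir20b, Mir19b2, Mir92a2 and Mir363. It encodes a second copy of miR-17-5p, of miR-19b-3p and of miR-92a-3p with identical sequence, and those mature counts cannot be divided between the loci. The Mir17 hairpin from chromosome 15 shows how a copy can be told by its other arm, with miR-17-5p and then miR-17-1-3p in capitals:
Mir17 hairpin: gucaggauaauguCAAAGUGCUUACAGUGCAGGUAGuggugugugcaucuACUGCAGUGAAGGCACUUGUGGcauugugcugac

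For the matched arms that differ between the loci, almost all counts came from the chromosome 15 copy. miR-17-1-3p had 421 counts over the 8 libraries, whereas miR-17-2-3p, the matching arm of the X-linked hairpin, had 0 of 175047067 counts, which allows a level of up to 0.0171 CPM. miR-19b-1-5p had 27 counts and miR-19b-2-5p had 0. miR-92a-1-5p had 89 counts and miR-92a-2-5p had 1. The other X-linked products were also rare, with 44 counts for miR-20b-5p and 104 for miR-363-3p. These limits and all intervals on counts cover counting error only.

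The members differed in level by more than 2 orders of magnitude, and so did those of miR-17-92 alone. miR-92a-3p was the most abundant, at 390 ± 67.7 CPM (SD, n = 8 libraries), which placed it at rank 122 of the 507 miRNAs tested. The lowest was miR-19a-3p, at 0.758 ± 0.373 CPM (SD, n = 8) and rank 486. Between them came miR-93-5p at 363 CPM, miR-19b-3p at 97.5 CPM, miR-25-3p at 61.3 CPM, miR-20a-5p at 44.9 CPM, miR-17-5p at 42.2 CPM, miR-106b-5p at 19.7 CPM, miR-18a-5p at 4.67 CPM and miR-17-1-3p at 2.34 CPM. Mature miRNAs are nearly equal in length, here 21 to 23 bases, so these levels need no length correction, but adapter ligation favours some sequences over others and can shift the order.

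Neighbours in this order were compared library by library. miR-92a-3p was above miR-93-5p in 7 of 8 libraries, miR-19b-3p was above miR-25-3p in 6 and miR-20a-5p was above miR-17-5p in 5, so the order of these neighbours was not larger than the spread between libraries. In the other 6 steps the higher miRNA was higher in 8 of 8 libraries. The ranges over libraries were fully apart at 2 of them, from miR-93-5p to miR-19b-3p and from miR-106b-5p to miR-18a-5p. Within a library, miR-92a-3p exceeded miR-19a-3p by between 260-fold in saline rat 4 and 1449-fold in saline rat 1, where miR-19a-3p had 7 counts. In miR-106b-25, the excess of miR-93-5p over miR-106b-5p ranged from 10.4-fold in METH rat 1 to 42.4-fold in METH rat 4.

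**Figure D1:**
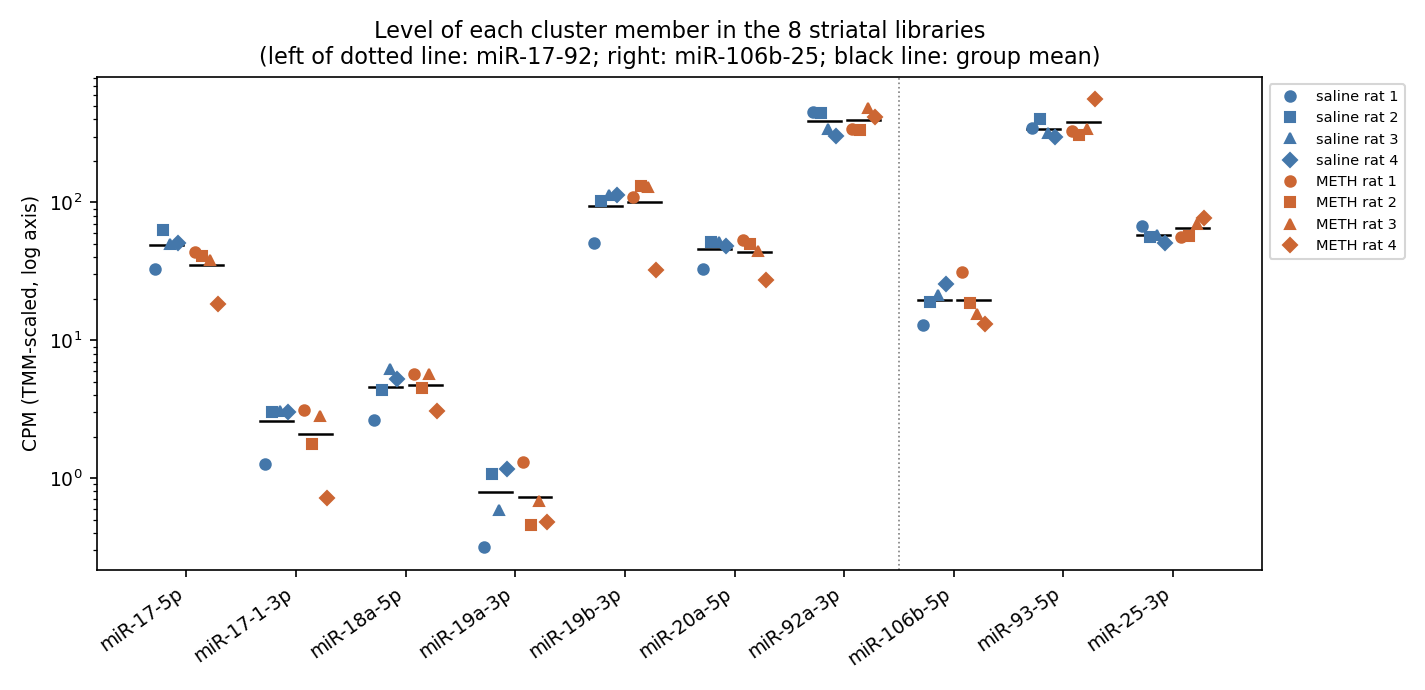
Level of each member in CPM on a log axis, with 1 point per rat, saline in blue and METH in orange, and the group mean as a black line. The members span from 0.758 CPM for miR-19a-3p to 390 CPM for miR-92a-3p, and the points of both groups overlap for each of the 10 members.

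The arm ratios also varied widely within each cluster. In miR-17-92, miR-92a-3p exceeded its partner miR-92a-1-5p by a geometric mean of 749-fold, with a range of 566 to 1150. That partner had only 5 to 17 counts per library, so the size of this ratio is loosely fixed. For miR-17-5p over miR-17-1-3p the excess was 18.7-fold, with a range of 13.5 to 25.7. The partners of the other members were too rare for a firm ratio, with 54 counts over the 8 libraries for miR-18a-3p, 27 for miR-19b-1-5p, 25 for miR-20a-3p and 3 for miR-19a-5p. In miR-106b-25, miR-93-5p exceeded miR-93-3p by 178-fold (range 107 to 455), whereas the arms of the other hairpins lay closer together. The ratio was 2.11 for miR-106b-5p over miR-106b-3p, with a range of 1.36 to 3.60, and 2.23 for miR-25-3p over miR-25-5p, with a range of 1.21 to 4.395. Each ratio had 0.5 added to both counts.

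The first comparison asked whether any member differed between METH and saline rats. After Benjamini-Hochberg adjustment over the 507 miRNAs, the edgeR quasi-likelihood test called 0 of the 10 members at a threshold of 0.05, and 0.0% of all miRNAs tested. At an unadjusted p under 0.05 there were again 0 members, against 5.52% of all miRNAs tested (2.76% higher and 2.76% lower in METH rats). DESeq2, the exact and likelihood ratio tests of edgeR and limma voom also called 0 members at either threshold. In that order, 8, 6, 7 and 0 of the 507 miRNAs passed the adjusted threshold. At an unadjusted p under 0.05 they called 34, 32, 33 and 58. The groups overlapped for all 10 members, whereas 1.78% of tested miRNAs were higher and 1.38% lower in every METH rat than in every saline rat. Log2 fold changes (METH over saline) ranged from -0.48 to 0.18, with 6 members above 0 and 4 below. The median was -0.08 for miR-17-92 and 0.16 for miR-106b-25, against -0.02 over all miRNAs tested, of which 52.7% were below 0.

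miR-17-5p, the guide strand that names its cluster, had the smallest p of the members. Its level in saline rats 1 to 4 was 32.9, 63.3, 49.7 and 50.8 CPM. In METH rats 1 to 4 it was 43.4, 40.8, 38.4 and 18.2 CPM. All 4 METH rats lay below the 3 higher saline rats, but only METH rat 4 lay below saline rat 1. METH over saline came to -0.48 ± 0.33 (SE) on the log2 scale, with a 95% interval from -1.21 to 0.25. In edgeR its unadjusted p was 0.172 and its adjusted p 0.818. Without METH rat 4 the fold change was -0.25 on the log2 scale, and without METH rat 1 it was -0.60.

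miR-17-1-3p, the opposite arm of the same hairpin, was at 1.26, 3.00, 3.06 and 3.01 CPM in saline rats 1 to 4. In the METH rats it was at 3.09, 1.76, 2.82 and 0.720 CPM. Saline rat 1 and METH rat 4 were the lowest of their groups, and the other 6 values lay between 1.76 and 3.09 CPM. The difference on the log2 scale was -0.30 ± 0.46 (SE), and edgeR gave 0.939 as its adjusted p. Without METH rat 4 the value was -0.0072.

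miR-20a-5p, which shares its seed with miR-17-5p, was at 32.9, 52.0, 51.3 and 48.0 CPM in the saline rats and at 53.0, 49.8, 44.4 and 27.4 CPM in the METH rats. Again saline rat 1 and METH rat 4 were lowest, and the METH values of the other 6 rats spanned the saline values. METH rats differed by -0.08 ± 0.28 (SE) on the log2 scale, with a 95% interval from -0.70 to 0.55 (edgeR, adjusted p = 0.978).

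miR-18a-5p, which acts on the glucocorticoid receptor, was low in striatum. Its level was 2.64, 4.33, 6.20 and 5.24 CPM in saline rats 1 to 4, from 59, 101, 170 and 134 counts. In METH rats 1 to 4 it was 5.70, 4.48, 5.73 and 3.06 CPM, from 83, 89, 142 and 51 counts. The METH values lay within the saline range. Its difference was 0.04 ± 0.34 (SE) on the log2 scale (edgeR, adjusted p = 0.985). The 95% interval ran from -0.71 to 0.79, so these rats leave room for a fold change anywhere between 0.612 and 1.73.

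The miR-19 members carry much of the oncogenic activity attributed to the cluster. miR-19b-3p was at 50.6, 102, 112 and 112 CPM in the saline rats and at 110, 132, 128 and 32.4 CPM in the METH rats. METH rats 2 and 3 were the highest of all rats and METH rat 4 was the lowest. On the log2 scale the difference was 0.10 ± 0.43 (SE), and edgeR gave 0.978 after adjustment. Without METH rat 4 it was 0.41, which also missed the threshold, with an adjusted p of 0.998.

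miR-19a-3p, which differs from miR-19b-3p by a single base, had 7, 25, 16 and 30 counts in the saline rats and 19, 9, 17 and 8 counts in the METH rats. At such counts the level of a single rat is poorly fixed. For saline rat 1, at 0.314 CPM, the exact 95% Poisson interval ran from 0.126 to 0.647 CPM. METH minus saline was -0.13 ± 0.49 (SE) on the log2 scale (edgeR, adjusted p = 0.978).

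miR-92a-3p, known for restraining angiogenesis, was at 455, 445, 340 and 305 CPM in saline rats 1 to 4. In METH rats 1 to 4 it was at 341, 337, 487 and 413 CPM. Unlike the members named so far, it was not at its lowest in saline rat 1 or METH rat 4. METH minus saline was 0.03 ± 0.23 (SE) on the log2 scale, and the 95% interval ran from -0.48 to 0.54 (edgeR, adjusted p = 0.985).

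In miR-106b-25, miR-93-5p was at 347, 402, 318 and 296 CPM in the saline rats and at 329, 310, 341 and 560 CPM in the METH rats. METH rat 4 was the highest rat, and the other 3 METH rats lay within the saline range. Its difference was 0.18 ± 0.25 (SE) on the log2 scale (edgeR, adjusted p = 0.935), and without METH rat 4 it turned to -0.05.

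miR-25-3p, which shares its seed with miR-92a-3p, was at 67.1, 56.1, 57.6 and 50.7 CPM in the saline rats and at 55.9, 57.3, 69.1 and 76.6 CPM in the METH rats. METH rats 3 and 4 were above every saline rat, and METH rats 1 and 2 within the saline range. The difference of 0.16 ± 0.22 (SE) on the log2 scale had a 95% interval from -0.33 to 0.66 (edgeR, adjusted p = 0.929). It was 0.07 without METH rat 4.

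miR-106b-5p was at 13.0, 18.9, 21.3 and 25.4 CPM in the saline rats and at 31.5, 18.6, 15.5 and 13.2 CPM in the METH rats. The highest rat and 2 of the 3 lowest were METH rats. Group means were nearly equal, at 19.6 ± 5.21 CPM in saline and 19.7 ± 8.16 CPM in METH rats (SD, n = 4 each). The 95% interval of its log2 fold change nevertheless ran from -0.75 to 0.75, and the adjusted p was 1.00 in edgeR.

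**Figure D2:**
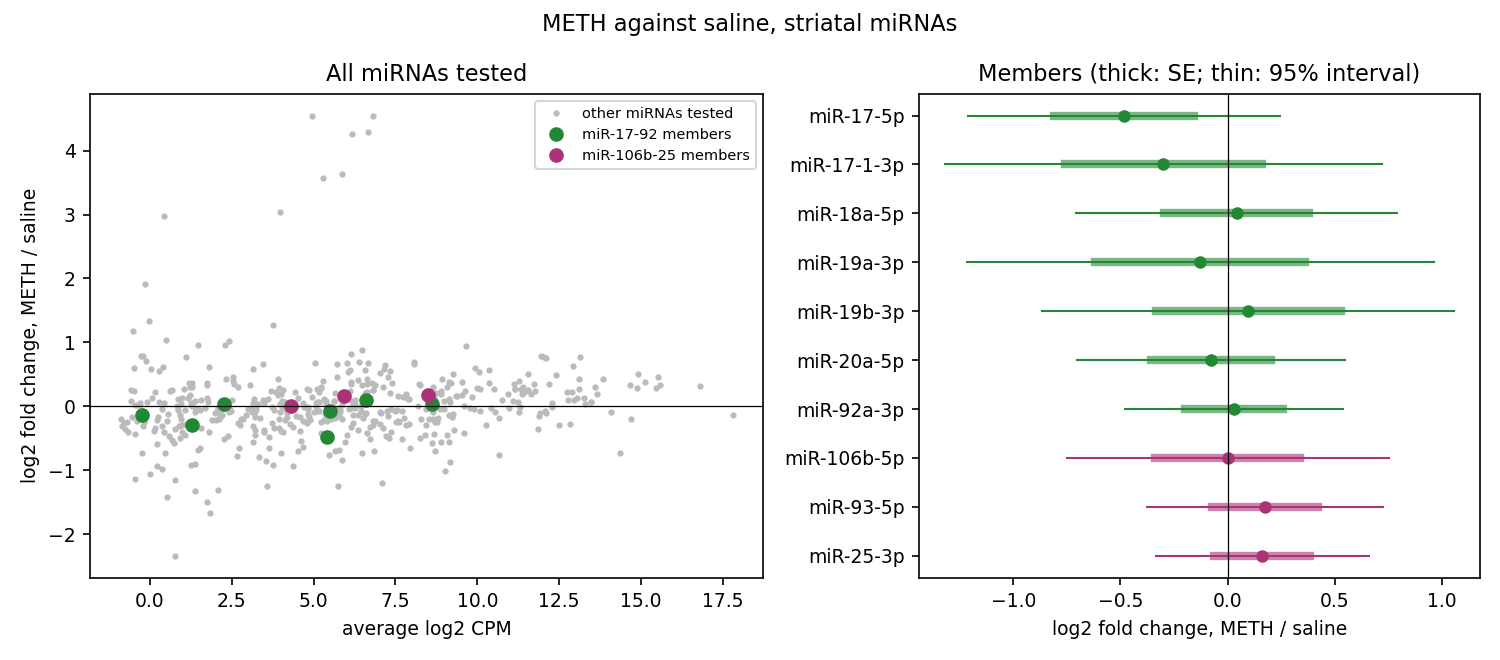
Log2 fold change of METH over saline, on the left against average log2 CPM for the 507 miRNAs tested, with the members in colour, and on the right for each member with its SE (thick) and 95% interval (thin). The intervals of all 10 members include 0, and the members lie between -0.48 and 0.18.

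The members did not vary alike from rat to rat. Over the 8 libraries, miR-25-3p varied least, with a highest value 1.51 times the lowest, and miR-17-1-3p varied most, at 4.29 times. The within-group SD of log2 CPM was 0.19 for miR-25-3p, 0.27 for miR-92a-3p and 0.31 for miR-93-5p, against a median of 0.42 to 0.45 for miRNAs tested within 1 log2 unit of each. For miR-19b-3p it was 0.79, against a median of 0.49 for the 91 miRNAs of similar level. Members went in both directions in saline rat 1 and METH rat 4, which was noticed after the values had been seen. In both rats, miR-17-5p, miR-17-1-3p, miR-18a-5p, miR-19a-3p, miR-19b-3p, miR-20a-5p and miR-106b-5p were below their own mean of the 8 libraries, whereas miR-92a-3p and miR-25-3p were above theirs. In METH rat 4 the deviations were -1.45 for miR-19b-3p, -1.13 for miR-17-5p and 0.66 for miR-93-5p on the log2 CPM scale. In saline rat 1 the same members were at -0.81, -0.28 and -0.03, so miR-93-5p was not high there.

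**Figure D3:**
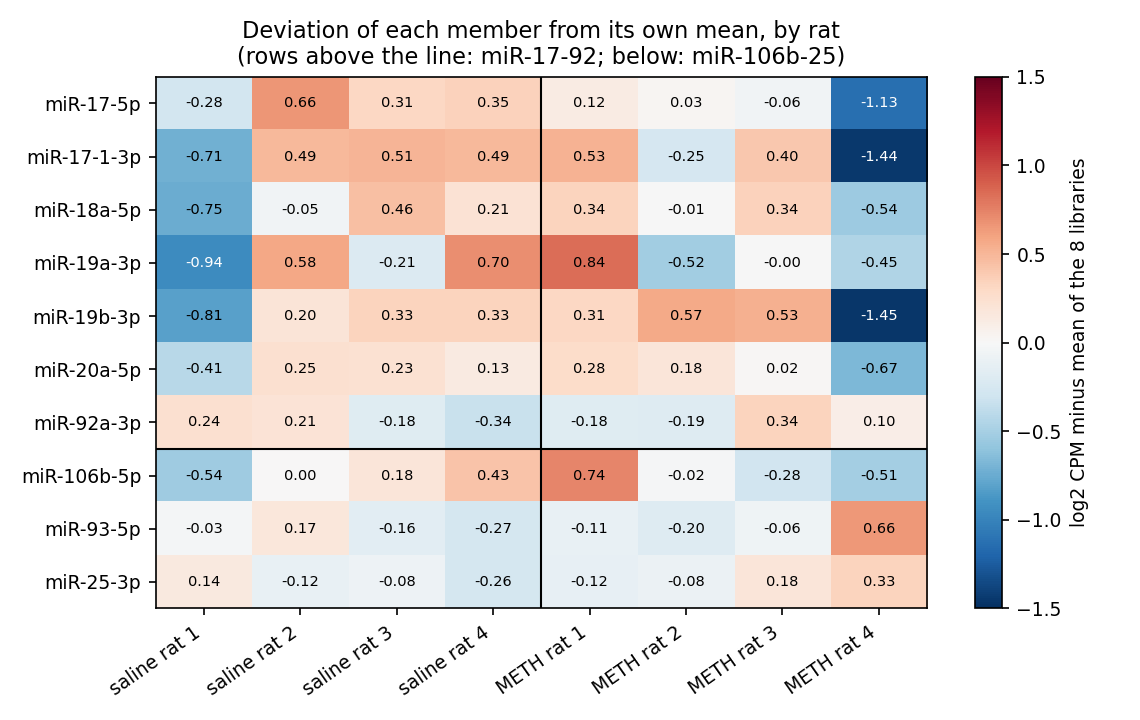
Deviation of log2 CPM from the mean of the 8 libraries, for each member (rows) and rat (columns), with red above and blue below the mean. The same 7 members are below their means in saline rat 1 and METH rat 4, down to -1.45, while miR-92a-3p and miR-25-3p are above their means in both.

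Marker miRNAs of other cells also moved in METH rat 4. Markers of blood cells are given first. The erythrocyte markers miR-451-5p, miR-144-3p and miR-144-5p summed to 2817 CPM in METH rat 4, against 342 to 648 CPM in the other METH rats and 403 to 644 CPM in the saline rats. Nearly all of that sum is miR-451-5p, at 2807 CPM in METH rat 4. miR-144-3p was also highest there, at 9.13 CPM against 1.01 to 3.87 CPM in the other 7 rats. miR-144-5p was not, at 0.901 CPM there and 1.06 CPM in saline rat 4. Another erythrocyte marker, miR-486, was not matched by name. The 4 leukocyte markers, led by miR-150-5p, summed to 688 CPM in METH rat 4, against 1243 to 2063 CPM in the other METH rats and 1076 to 2094 CPM in the saline rats. That sum is nearly all miR-150-5p, at 665 CPM in METH rat 4, whereas miR-223-3p went the other way, at 14.0 CPM there and 2.64 to 4.08 CPM in the other 7 rats. The choroid plexus markers miR-204-5p and miR-211-5p summed to 6953 CPM there, against 2686 to 3474 CPM in the other 7 rats. In saline rat 1, the erythrocyte sum was 613 CPM and the choroid plexus sum was 3474 CPM. The endothelial markers miR-126a-3p and miR-126a-5p ranged from 8361 to 8815 CPM in saline rats and from 8063 to 10699.9 CPM in METH rats, with METH rat 4 highest. miR-126a-3p carries this sum, and miR-126a-5p was at its lowest in METH rat 4, at 128 CPM against 232 to 389 CPM in the other 7 rats. The oligodendrocyte markers miR-219a-2-3p and miR-338-3p ranged from 2459 to 2753 CPM in saline rats and from 1954 to 4379 CPM in METH rats, again with METH rat 4 highest. Here too the members parted, since miR-219a-2-3p was highest in METH rat 4, at 4119 CPM, and miR-338-3p lowest, at 259 CPM against 310 to 904 CPM in the others. So did the neuronal markers. miR-124-3p was lowest in METH rat 4, at 97752 CPM against 127824 to 342449 CPM in the other 7 rats. miR-9a-5p was highest there, at 204524 CPM against 82989 to 115872 CPM, while miR-128-3p and miR-137-3p lay within the range of the others. None of the markers tested passed the adjusted threshold. Their part in the levels of the members was not tested.

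The second comparison used ratios of counts within a library, in which scaling to depth cancels. Of the 7 ratios examined, the 1 whose groups did not overlap was that of miR-20a-5p to miR-17-5p. It was 1.00, 0.821, 1.03 and 0.945 in saline rats 1 to 4. In METH rats 1 to 4 it was 1.22, 1.22, 1.16 and 1.51. miR-20a-5p was thus above miR-17-5p in all 4 METH rats, and near it or below in the saline rats. The mean log2 ratio was -0.08 ± 0.15 among saline rats and 0.34 ± 0.17 among METH rats (SD, n = 4 each), a difference of 0.42. A two-sided exact permutation test gave p = 0.0286, the smallest that groups of 4 allow, and 0.200 after Benjamini-Hochberg adjustment over the 7 ratios. With 7 ratios and groups of 4, a single ratio cannot reach an adjusted p below 0.200, so the adjusted test could not have called this difference alone. It was between 0.34 and 0.47 when any single rat was left out.

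Counting error and the number of possible ratios limit this result. The nearest rats across the groups were saline rat 3, with 1407 counts of miR-20a-5p to 1362 of miR-17-5p, and METH rat 3, with 1101 to 951. Their exact 95% intervals, 0.958 to 1.11 and 1.06 to 1.26, overlapped. Of all 45 ratios between 2 members, 1 had groups that did not overlap, which is 2.22%, against 4.24% of the 128271 ratios between 2 miRNAs tested. A count of 1 is near what the share of the table would give, and nothing is read from it about the members.

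The other 6 ratios overlapped between groups. The ratio of miR-18a-5p to miR-17-5p averaged -3.44 ± 0.38 among saline and -2.85 ± 0.27 among METH rats on the log2 scale (SD, n = 4 each), with an exact permutation p of 0.0571 and 0.200 adjusted. That of miR-92a-3p to miR-17-5p was 2.99 ± 0.54 and 3.55 ± 0.71 (SD, n = 4 each), with an exact p of 0.200 and 0.467 adjusted. Its difference of 0.56 became 0.24 without METH rat 4 and 0.82 without saline rat 1. For these 3 ratios the denominator is miR-17-5p, so they are not independent of each other. Between miR-19b-3p and miR-19a-3p, which share a seed, the mean log2 ratio was 6.97 among saline rats and 6.99 among METH rats. The difference of 0.02 became 0.36 without METH rat 4. Ratios of miR-106b-5p to miR-93-5p, miR-25-3p to miR-93-5p and miR-17-5p to miR-17-1-3p differed by -0.18, 0.01 and -0.12 between groups, with adjusted p-values of 0.943 each in the exact permutation test. In the same order they turned to 0.18 without METH rat 4, -0.08 without saline rat 2 and 0.02 without METH rat 3.

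**Figure D4:**
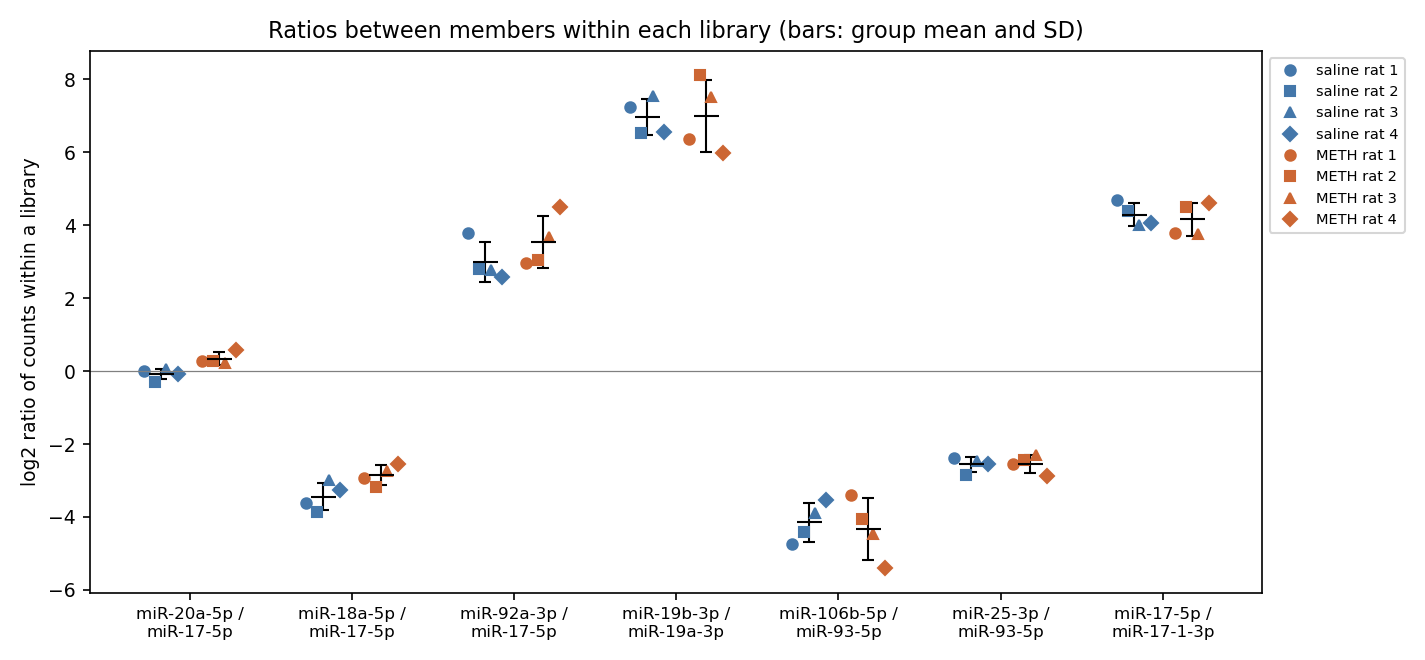
Log2 ratio of the counts of 2 members within a library, with 1 point per rat, saline in blue and METH in orange, and the group mean with its SD. The groups are apart for miR-20a-5p over miR-17-5p, at -0.08 and 0.34, and overlap for the other 6 ratios.

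miRNAs that share a seed can act on the same targets, so their levels were also summed. The 4 members with the miR-17 seed summed to 456 ± 54.1 CPM in saline rats and 483 ± 91.5 CPM in METH rats (SD, n = 4 each). The saline rats were at 426, 536, 441 and 420 CPM and the METH rats at 457, 419, 440 and 619 CPM, so that METH rat 4 was highest although its miR-17-5p was lowest. METH minus saline was 0.08 on the log2 scale, and turned to -0.0493 without METH rat 4 and to -0.0528 with scaling to library totals. With the scarce miR-20b-5p counted in, miR-93-5p alone made up 74.7 ± 4.88% of the pool in saline rats and 78.5 ± 8.31% in METH rats (SD, n = 4 each). In METH rat 4 its share was 90.4%, and that of miR-17-5p was 2.94%. Most of this pool thus came from miR-106b-25, not from miR-17-92.

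For the miR-92 seed, the 2 members summed to 444 ± 79.9 CPM in saline rats and 459 ± 78.5 CPM in METH rats (SD, n = 4 each). They were a minor part of the pool, because miR-92b-3p, which comes from a separate gene, carries the same seed at 2385 ± 439 CPM in saline rats and 2498 ± 302 CPM in METH rats (SD, n = 4 each). miR-92a-3p contributed 13.6 ± 1.43% and 13.3 ± 1.81% of it (SD, n = 4 each), and miR-25-3p 2.06 ± 0.221% and 2.19 ± 0.267% (SD, n = 4 each). The miR-19 seed was supplied at 99.2% and 99.1% by miR-19b-3p, and no miRNA of the table with a known sequence shared the seed of miR-18a-5p.

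**Figure D5:**
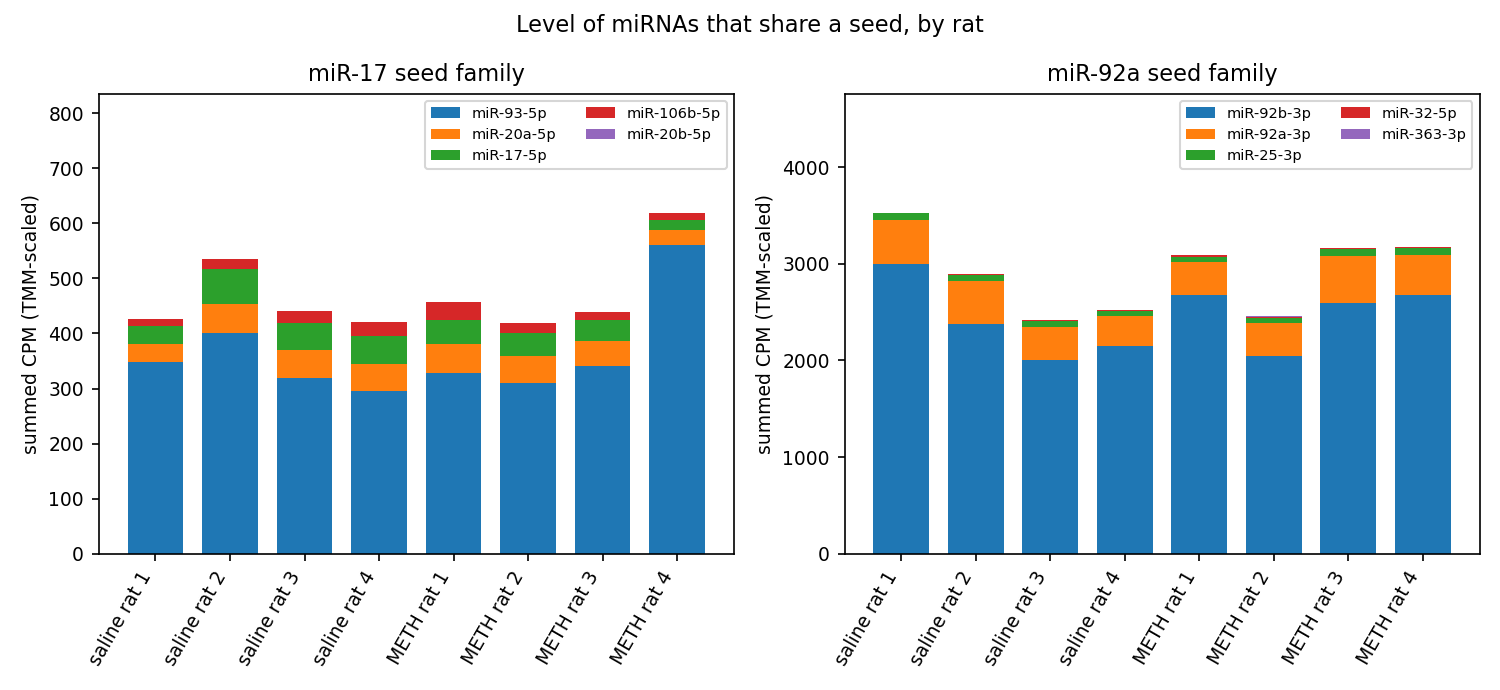
Summed CPM of the miRNAs that share the miR-17 seed (left) and the miR-92 seed (right), stacked by miRNA, for each rat. miR-93-5p is the largest part of the miR-17 pool in each rat, 74.7% on average in the saline group, and miR-92b-3p is the largest part of the miR-92 pool.

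The other products of the loci and their relatives gave no call either. Of 11 other arms listed, 9 had counts and 3 passed the low-count filter, all from miR-106b-25. Of these 3, 0 passed the adjusted threshold. Their log2 fold changes were -0.37 ± 0.29 (SE) for miR-106b-3p, -0.28 ± 0.32 (SE) for miR-93-3p and -0.17 ± 0.37 (SE) for miR-25-5p, with adjusted p-values of 0.818 to 0.978 in edgeR. Without METH rat 4 they were -0.17, -0.13 and -0.26, and the value of miR-25-5p turned to 0.0180 without METH rat 1 and 0.0023 without saline rat 3. Of 11 paralogues and seed relatives, 8 were in the table and 4 were tested, with 0 called. The log2 fold changes were 0.07 for miR-92b-3p, 0.40 for miR-92b-5p, -0.40 for miR-32-5p and 0.24 for miR-32-3p, with adjusted p-values of 0.883 to 0.978 in edgeR. The value of miR-92b-5p rests on METH rat 4, at 88.3 CPM against 23.5 to 33.2 CPM in the other METH rats and 31.2 to 38.9 CPM in the saline rats, and without that rat it turned to -0.17. Without it that of miR-32-3p was 0.07. That of miR-32-5p was -0.65 without saline rat 1 and -0.19 without saline rat 4, where that of miR-92b-3p turned to -0.0040. miR-363-3p, from the X-linked cluster, did not pass the filter. It had 9, 5, 10 and 7 counts in the saline rats and 7, 18, 11 and 37 counts in the METH rats, so its level rests on few reads. Scaled to depth, it was at 0.215 to 0.403 CPM in saline rats and 0.444 to 2.22 CPM in METH rats, which did not overlap, as was the case for the 1.78% of tested miRNAs that were higher in every METH rat. It was singled out after its values were seen. In 5 fits with a rat left out it passed the filter, but only through METH rats, where its level was higher. No test of it is therefore given.

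Finally, the miRNAs outside these lists whose profiles were most like those of the clusters were sought. Likeness was the root mean square difference between centred log2 CPM profiles over the 8 libraries, where a smaller value means closer profiles. Among 490 miRNAs, those nearest the mean profile of miR-17-92 were miR-99a-3p at 0.13, miR-124-5p at 0.15 and miR-101b-3p at 0.15, against a median of 0.57. Each was lowest in METH rat 4 and next lowest in saline rat 1, with miR-101b-3p at 78.4 and 102 CPM there and between 181 and 201 CPM in the other 6 rats. Nearest to miR-106b-25 were the endothelial miR-126a-3p at 0.08, miR-145-3p at 0.10 and miR-592 at 0.11, against a median of 0.47. The mean profile of this cluster averages members that went opposite ways in METH rat 4, with miR-106b-5p at -0.51 and miR-93-5p at 0.66, so a profile of small range lies close to it. Over the 8 rats, miR-145-3p ranged from 16.1 to 19.5 CPM, miR-592 from 19.3 to 27.4 CPM and miR-126a-3p from 7773 to 10572 CPM. Log2 fold changes of these 6 miRNAs ranged from -0.09 to 0.14, with adjusted p-values of 0.939 to 0.985 in edgeR.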

How the data were processed

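Libraries were made with a small RNA kit that adds unique molecular identifiers and sequenced on a BGISEQ-500. The authors trimmed adapters with Cutadapt 1.18, aligned reads to rn6 with STAR 2.7.0e and counted reads with featureCounts (Subread 1.6.4), per the labels and the study's methods. The deposited values are raw counts per mature miRNA, with no normalization. Merging of reads by identifier, the miRNA annotation and the treatment of reads with several alignments were not given in the sources used here. Copies made by PCR may therefore be counted more than once. The 752 miRNAs were filtered with filterByExpr (minimum count 10), scaled by TMM and tested with the quasi-likelihood test of edgeR 4.0.16 (R 4.3.3), modelling the group alone, with Benjamini-Hochberg adjustment over 507 miRNAs. CPM used TMM-scaled library sizes, and log2 CPM a prior count of 2. SEs were derived from the F statistic. Ratios were compared by exact permutation over 70 assignments. On counts simulated with 4-fold changes, 189 of 196 changed miRNAs tested were called. There were 11 false calls among the unchanged miRNAs of the 500 tested. No simulated library stood apart as METH rat 4 did. The simulation does not show how often changes as small as those of the members, -0.48 to 0.18 on the log2 scale, would be called. Alternatives covered 4 scalings, 2 filters, DESeq2 1.42.0, limma 3.58.1, other edgeR tests, a replicate block and each rat left out. The text names each member, entries of the 2 miRNA lists and the 3 nearest profiles per cluster. Members and lists were chosen with earlier results of these data known. Each rat gave a single library, so p-values measure the spread between rats together with that of library preparation. GRCr8 served for sequences, names and gene order, with 685 of 752 miRNAs matched by name.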

Additional observations from a re-analysis of the deposited data

Results flagged for a closer look

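A rat far from the other 3 of its group was seen in 5 of 34 groups of 4 examined, where chance gives about 1.7. The groups share libraries and members share transcripts, so these are not independent. In METH rat 4, miR-17-5p was at 4.19 log2 CPM, where its group otherwise spanned 5.27 to 5.44. In the same rat miR-19b-3p was at 5.02 log2 CPM, against 6.78 to 7.05. By contrast miR-93-5p was at 9.13 log2 CPM there, against 8.28 to 8.42, so the members moved in both directions in this rat. In saline rat 1, miR-17-1-3p was at 0.43 log2 CPM, where its group otherwise spanned 1.63 to 1.66, and miR-19b-3p was at 5.66 with the rest at 6.67 to 6.81.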

How the results depend on the processing

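The members called numbered 0 in each of the 20 other fits, at adjusted and at unadjusted p under 0.05, and the smallest adjusted p of any member was 0.528. Over all miRNAs in those fits, unadjusted p under 0.05 was met by 16 of 458 (10 counts in every library) to 58 of 507 (voom). The count over all miRNAs was 0 in the quasi-likelihood test, where 28 had an unadjusted p under 0.05, and 8 with DESeq2, 6 with the edgeR exact test and 7 with the likelihood ratio test, none of them a member. Leaving out each rat gave 0 to 5 calls, the most without METH rat 1.

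Of 119 log2 fold changes of members under other settings, 110 kept both their direction and their call, and 9 reversed, to values between -0.17 and 0.0401. Library totals gave -0.0283 for miR-18a-5p, -0.11 for miR-92a-3p and -0.0472 for miR-106b-5p, and moved the median over all miRNAs from -0.02 to -0.12. Upper quartile factors gave 0.0401 for miR-20a-5p. The filter of 10 counts in every library gave -0.0068 for miR-106b-5p and no value for miR-19a-3p, which it removed. Voom gave -0.0590 for miR-18a-5p, -0.17 for miR-106b-5p and -0.0068 for miR-93-5p. The replicate block gave -0.0521 for miR-106b-5p and 0 calls, but rats with the same number share only that number, and their deviations correlated at -0.339, -0.155, -0.154 and -0.357. The median of miR-106b-25, 0.16, moved to 0.0015 with library totals and -0.0068 with voom. That of miR-17-92, -0.08, turned to 0.0401 with upper quartile factors. The summed levels turned with library totals for the miR-17 seed, to -0.0528, and for the 2 members with the miR-92 seed, from 0.0511 to -0.0770.

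With each rat left out, 19 of 80 values reversed. The ranges were -0.11 to 0.24 for miR-18a-5p, -0.53 to 0.12 for miR-19a-3p, -0.0949 to 0.41 for miR-19b-3p, -0.18 to 0.11 for miR-20a-5p, -0.11 to 0.16 for miR-92a-3p, -0.32 to 0.16 for miR-106b-5p and -0.0520 to 0.30 for miR-93-5p. The median of miR-17-92 turned above 0 when saline rat 2 (0.0248) or METH rat 4 (0.0244) was removed, and was lowest, at -0.18, with METH rat 1 removed. The sum over the miR-92 seed ranged from -0.0496 to 0.13. The direction held for miR-17-5p, miR-17-1-3p and miR-25-3p. Log2 ratio differences ranged from -0.35 to 0.36 for miR-19b-3p over miR-19a-3p, -0.0797 to 0.12 for miR-25-3p over miR-93-5p, -0.49 to 0.18 for miR-106b-5p over miR-93-5p and -0.27 to 0.0162 for miR-17-5p over miR-17-1-3p. With 5 added to each count in place of 0.5, the first was -0.0598. The cause of the reversals was not tested. Counts of 7 to 30 for miR-19a-3p limit what can be said of it.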
